A study of Mus musculus with 6 samples.

Results

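Heat shock chaperone transcripts were described in CD11B+ cells from injured mouse kidneys through 10 genes chosen by name: Hspa1a, Hspa1b, Hspa8, Hsph1, Dnajb1, Hsp90aa1, Hsp90ab1, Hspb1, Hspd1 and Hspe1. All 10 were found among the 46603 genes of the count table, and all 10 were abundant enough to be tested with 15440 genes in total. CD11B (Itgam) is an integrin found on the surface of myeloid cells. The cells came from 3 mice that were PEPCK CRE+ and from 3 that were PEPCK CRE-, both with the Rosa26-LSL-RARaT403X allele, called PTEC DN RAR mice and Cre– controls, all males aged 10 to 12 weeks, on day 3 after both renal pedicles had been clamped for 28 minutes (IRI-AKI). This allele encodes a dominant negative RARα that is silent without Cre, and Cre is driven by the PEPCK promoter in proximal tubular epithelial cells (PTECs), so the allele was not targeted to the CD11B+ cells that were sequenced. Each library was 1 mouse. The design asks how loss of RAR signaling in PTECs relates to transcripts of the CD11B+ cells, and the chaperone genes are a readout of cell stress, including stress from the enzymatic digestion at 37°C used to free the cells.

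Heat shock chaperones bind unfolded proteins and help them reach or keep their native shape. HSP70 proteins work in an ATP-driven cycle in which J-domain proteins bring substrates and HSP110 proteins exchange the nucleotide, HSP90 takes over partly folded clients such as kinases and steroid receptors, small heat shock proteins hold unfolded proteins without ATP, and HSP60 with HSP10 forms the folding chamber of mitochondria. Some members are made at all times, such as Hspa8 and Hsp90ab1, and others are induced by heat and proteotoxic stress through heat shock factor 1, which binds inverted repeats of a short GAA unit, the heat shock element. Dissociation of tissue with warm enzymes is itself known to induce the stress-inducible members together with immediate early genes.

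The promoters of 5 members are shown because they hold letters that match at least 2 units of the heat shock element and because those of Hspa1a and Hspa1b are nearly the same. They are RefSeq sequences on GRCm38.p6, from 250 bases before to 50 bases after the annotated start, printed 5′ to 3′ on the strand of the gene. Capitals mark GAANNTTC or TTCNNGAA, which are 2 inverted units. Each of these letter patterns reads the same on both strands, and neighbouring matches may overlap.
Hspa1a, chr17:34972107-34972406, minus strand: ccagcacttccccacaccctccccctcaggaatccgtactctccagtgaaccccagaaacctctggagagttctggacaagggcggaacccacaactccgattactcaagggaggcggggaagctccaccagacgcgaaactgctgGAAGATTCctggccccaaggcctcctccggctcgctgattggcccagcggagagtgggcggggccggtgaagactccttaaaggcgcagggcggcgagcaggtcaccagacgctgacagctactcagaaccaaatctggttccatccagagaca
Hspa1b, chr17:34959189-34959488, minus strand: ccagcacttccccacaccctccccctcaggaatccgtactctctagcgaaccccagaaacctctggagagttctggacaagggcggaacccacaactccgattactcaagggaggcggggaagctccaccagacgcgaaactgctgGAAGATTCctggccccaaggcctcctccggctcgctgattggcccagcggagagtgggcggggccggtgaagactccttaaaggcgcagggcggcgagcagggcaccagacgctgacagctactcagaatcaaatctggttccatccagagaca
Hspb1, chr5:135887669-135887968, plus strand: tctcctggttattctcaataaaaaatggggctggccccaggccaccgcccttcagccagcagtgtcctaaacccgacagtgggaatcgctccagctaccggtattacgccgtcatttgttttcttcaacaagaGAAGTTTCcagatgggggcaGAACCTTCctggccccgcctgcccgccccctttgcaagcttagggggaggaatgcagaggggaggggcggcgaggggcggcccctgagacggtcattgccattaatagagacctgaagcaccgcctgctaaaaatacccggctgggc
Hsph1, chr5:149636287-149636586, minus strand: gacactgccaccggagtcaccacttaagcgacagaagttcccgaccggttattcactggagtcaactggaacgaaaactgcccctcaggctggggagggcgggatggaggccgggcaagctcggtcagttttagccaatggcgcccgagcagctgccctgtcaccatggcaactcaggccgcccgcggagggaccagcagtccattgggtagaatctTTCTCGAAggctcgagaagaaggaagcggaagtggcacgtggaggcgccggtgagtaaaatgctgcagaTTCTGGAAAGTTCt
Hspe1, chr1:55087898-55088197, plus strand: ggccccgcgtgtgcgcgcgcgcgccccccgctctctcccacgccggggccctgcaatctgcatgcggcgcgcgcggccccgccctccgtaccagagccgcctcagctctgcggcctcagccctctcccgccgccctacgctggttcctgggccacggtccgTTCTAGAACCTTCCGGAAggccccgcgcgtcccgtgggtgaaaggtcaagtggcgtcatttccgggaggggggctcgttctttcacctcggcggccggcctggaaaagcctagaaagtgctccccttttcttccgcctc
The windows of Hspa1a and Hspa1b were 98.7% identical and differed at 4 of 300 bases, C44T, T47C, T249G and C276T, counted from 1 at the 5′ end of the window with the Hspa1a base first. Both held 1 match, whose first base was at -104 from the start. Hspb1 held 2 matches, at -117 and -97. In Hspe1, 3 overlapping matches began at -89, -84 and -79, and in Hsph1 matches began at -33, 36 and 41.

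RefSeq promoters were at hand for 7 of the 10 members, and 6 of the 7 held at least 1 match to 2 units. Counted in the same way, such a match was found in 17% of all 27025 genes with a promoter of the same length, and in 15.1% of the 32851 promoters. A run of 3 units, GAANNTTCNNGAA or TTCNNGAANNTTC, was found in 3 members (Hsph1, Hspd1 and Hspe1), in 0.662% of all genes and in 0.603% of all promoters. Dnajb1 held neither pattern in its windows. Hspd1 and Hspe1 lie head to head on chromosome 1, and the 2 genes share the same stretch: the run of Hspe1 is also the run of Hspd1, read from the other strand. A match is a string of letters and not a measured binding site.

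Libraries held 29318041 to 46517005 counts on genes, so that 3 counts, the least taken as detected, correspond to 0.0645 to 0.102 CPM (counts scaled to the size of the library). Mitochondrial transcripts took 5.03% to 8.77% of counts in Cre– controls and 10.38% to 12.08% in PTEC DN RAR mice. Levels are given as CPM after scaling by the trimmed mean of M values (TMM), as mean ± SD with n = 3 mice per genotype. Itgam, which encodes CD11B, was at 1737, 1959 and 1995 CPM in Cre– controls and at 1366, 1303 and 980.3 CPM in PTEC DN RAR mice, which is a fall by 0.64 on the log2 scale (edgeR adjusted p = 0.00818). Rara itself was at 35.33 to 45.45 CPM and 30.75 to 37.55 CPM (adjusted p = 0.0628), and the table has no line for the mutant allele, so Rara does not check the genotype labels.

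Transcripts of other kidney cells were detected in all libraries, and most of their marker lists were higher in PTEC DN RAR mice. The counts of markers called here stand beside 23.6% of all genes called higher and 17.1% called lower. All 16 proximal tubule markers were called higher, with a summed level of 1157 to 1395 CPM in Cre– controls and 2910 to 4411 CPM in PTEC DN RAR mice. All 6 markers of the thick ascending limb (1182 to 1582 against 4500 to 8589 CPM) and all 9 of endothelium (86.99 to 126 against 255 to 309.3 CPM) were called higher as well. Of 8 collecting duct markers 4 were called higher, and the sums overlapped (103.1 to 281.1 against 225.2 to 488.3 CPM). Infiltrating monocyte markers went the other way, with 7 of 8 called lower and sums of 3812 to 4113 against 1611 to 1673 CPM, and so did neutrophil markers, with 5 of 10 called lower and sums of 470.6 to 849.4 against 298.8 to 425.9 CPM. No marker of these 6 lists was at 0. In bulk RNA, fewer cells of a type and less RNA per cell cannot be told apart, and for the chaperone genes, which most cells express, the part of other cells in the differences below cannot be told apart from genotype, since the tubule marker levels of the 2 genotypes do not overlap.

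Of the 10 chaperone genes, 4 were called higher in PTEC DN RAR mice (Hspa1a, Hspa1b, Hspb1 and Dnajb1), 1 was called lower (Hsp90ab1) and 5 passed in neither direction. Called means an adjusted p under 0.05 by the quasi-likelihood test of edgeR, adjusted by Benjamini-Hochberg across all 15440 genes. The share called, 50%, stands beside 40.6% of all genes tested, of which 23.6% were higher and 17.1% lower. The genotypes did not overlap in 6 of the 10 members, beside 53.4% of all genes. The median log2 fold change was 0.05 in the members and 0.04 in all genes, and the members ranged from -0.38 to 0.72. The chaperone genes therefore did not move together, and their median absolute log2 fold change, 0.29, was below the 0.36 of all genes.

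**Figure D1:**
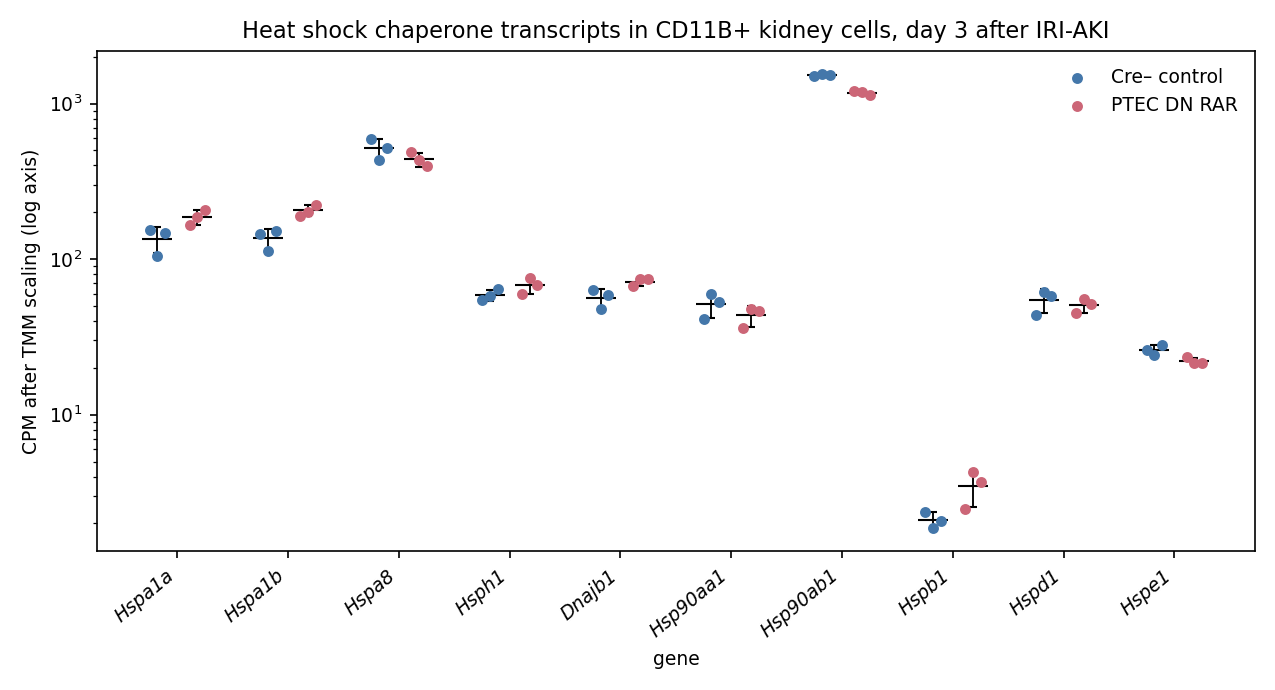
Levels of the 10 chaperone genes in each library as CPM after TMM scaling, on a log axis. Blue points are the 3 Cre– controls and red points the 3 PTEC DN RAR mice, black bars give the mean and SD, and the genotypes are apart for Hspa1a, Hspa1b, Dnajb1, Hspb1, Hsp90ab1 and Hspe1.

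**Figure D2:**
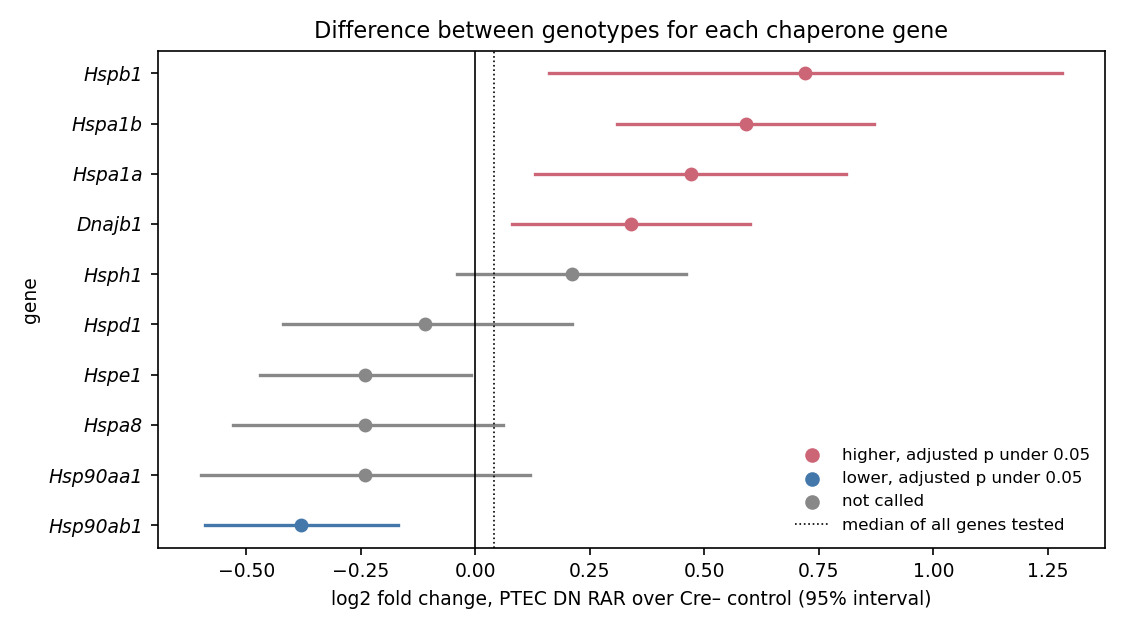
Log2 fold change of each chaperone gene, PTEC DN RAR over Cre– control, with its 95% interval from the edgeR fit; red and blue mark genes called higher and lower, grey those not called. The values run from -0.38 for Hsp90ab1 to 0.72 for Hspb1, and the dotted line is the median of all genes, 0.04.

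The inducible HSP70 genes rose. Hspa1a and Hspa1b encode nearly identical stress-induced HSP70 proteins from single-exon genes on chromosome 17 (GRCm38, 17:34969190-34972156 and 17:34956436-34959238, minus strand). Hspa1b was at 144.4, 113.1 and 152.1 CPM in Cre– controls and at 190.7, 201.5 and 224.2 CPM in PTEC DN RAR mice. Every PTEC DN RAR library was above every Cre– library, and control replicate 2 was the lowest of all. The mean went from 136.5 ± 20.69 to 205.5 ± 17.08 CPM, a log2 fold change of 0.59 (SE 0.12, 95% interval 0.31 to 0.87, edgeR adjusted p = 0.00644). Hspa1a was at 153.1, 105.5 and 147.3 CPM against 166.7, 186.9 and 208 CPM, in the same order of genotypes and again without overlap, for a log2 fold change of 0.47 (SE 0.15, 1.38-fold, edgeR adjusted p = 0.0343).

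The call of Hspa1a rested on single mice more than that of Hspa1b. Without control replicate 2 the log2 fold change of Hspa1a was 0.28 (adjusted p = 0.106), and it was 0.49 without control replicate 3 (0.0731), 0.47 without PTEC DN RAR replicate 2 (0.0748) and 0.34 without PTEC DN RAR replicate 3 (0.132). Hspa1b remained called whichever of the 6 mice was left out and lay between 0.43 and 0.64. The split between the 2 genes is itself uncertain. Of all windows of 75 bases in the Hspa1a transcript, 52.7% occur in the Hspa1b transcript, and a read that lies wholly within such shared sequence has no unique place and is left out of the counts. How many reads this touched depends on the read length, which was not given in the sources used here. Summed, which does not depend on the split of the reads that were counted, the pair took 297.6, 218.6 and 299.4 CPM in Cre– controls and 357.4, 388.3 and 432.1 CPM in PTEC DN RAR mice, also without overlap. Hspa1a also overlaps Gm20481, a gene with 0 to 4 counts per library, on the opposite strand over 564 exonic bases, 19% of the Hspa1a exons. The strand setting of the counting was not given, so it is unknown whether reads of Hspa1a were lost there.

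Hspa8, the constitutive HSP70 that also strips clathrin from coated vesicles, did not rise with them. It was at 589.5, 435.4 and 521.3 CPM in Cre– controls and at 486.6, 431.6 and 395.3 CPM in PTEC DN RAR mice. The genotypes overlapped, with PTEC DN RAR replicate 3 the lowest and control replicate 1 the highest. The log2 fold change was -0.24 with a 95% interval of -0.53 to 0.06 (edgeR adjusted p = 0.182). Without control replicate 2 it was -0.39 and was called (adjusted p = 0.0444).

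The ratio of the inducible pair to Hspa8 within a library, which does not depend on scaling, was 0.505, 0.502 and 0.574 for the Cre– controls, against 0.734, 0.9 and 1.09 for the PTEC DN RAR mice. All 3 PTEC DN RAR values lay above all 3 control values. The mean log2 ratio went from -0.93 ± 0.11 to -0.16 ± 0.29, a difference of 0.77 or 1.71-fold, with p = 0.1 by an exact two-sided permutation test and 0.4 after adjustment over the 4 ratios computed. With 3 mice per genotype no such test can go below 0.1, so a ratio could not reach 0.05.

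**Figure D3:**
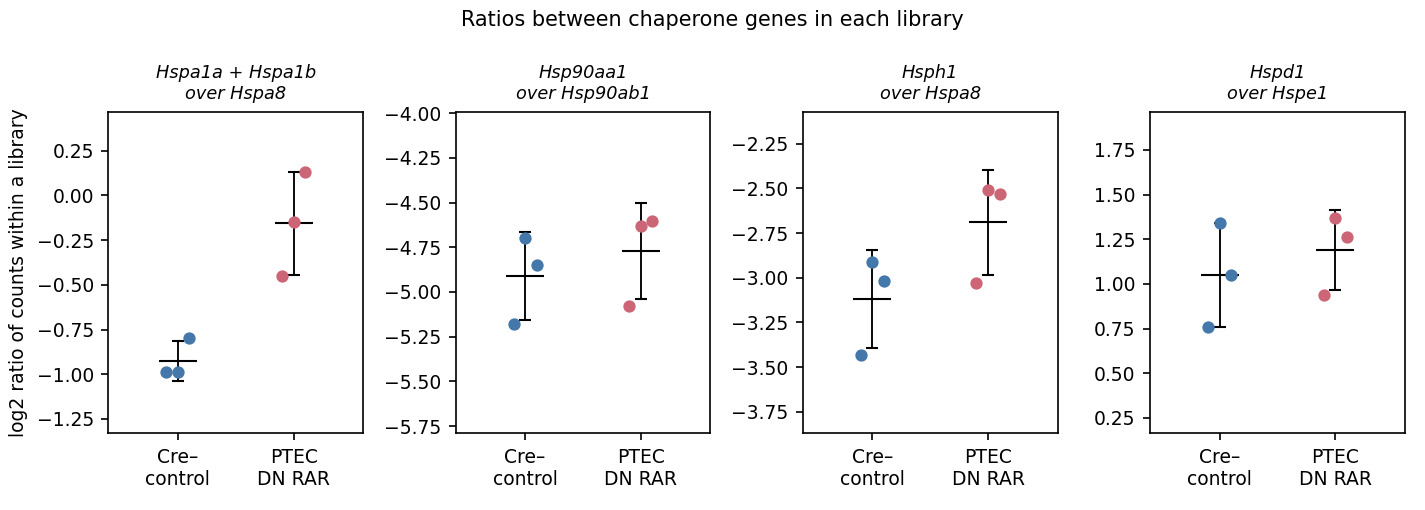
Log2 ratios between chaperone genes within each library, for the 3 Cre– controls (blue) and the 3 PTEC DN RAR mice (red), with mean and SD in black and axes of equal span. The genotypes are apart for Hspa1a plus Hspa1b over Hspa8, where the means are -0.93 and -0.16, and overlap for the other ratios.

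The partners of HSP70 in its cycle gave 1 call. Dnajb1, the J-domain protein HSP40 that stimulates the ATPase of HSP70 and is itself heat-inducible, was at 63.43, 47.87 and 58.48 CPM in Cre– controls and at 66.85, 74.14 and 74 CPM in PTEC DN RAR mice. The genotypes did not overlap, though the gap between the highest control and the lowest PTEC DN RAR library was small. The log2 fold change was 0.34 (SE 0.11, 1.27-fold, edgeR adjusted p = 0.0405), close to the threshold. Dnajb1 was not called with DESeq2 (0.0581), with DESeq2 size factors (0.0629) or with the replicate number in the model (0.0552). Nor was it called when any of 5 mice was left out. Without control replicate 2 the log2 fold change was 0.19 with an adjusted p of 0.173. The adjusted p was 0.126 without control replicate 3, and 0.0548, 0.106 and 0.142 without PTEC DN RAR replicates 1, 2 and 3. Hsph1, the HSP110 nucleotide exchange factor, was at 54.54, 58.01 and 64.05 CPM against 59.49, 75.83 and 68.66 CPM. Control replicate 3 lay above PTEC DN RAR replicate 1, so the genotypes overlapped, and the log2 fold change of 0.21 (95% interval -0.04 to 0.46) did not pass the test (edgeR adjusted p = 0.16). With libraries scaled on 26 pan-leukocyte genes, Hsph1 was called higher (0.41, adjusted p = 0.0452). The ratio of Hsph1 to Hspa8 differed by 0.43 on the log2 scale with an exact permutation p of 0.3 (0.6 adjusted).

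Of the HSP90 pair, the constitutive gene fell. Hsp90ab1, which encodes cytosolic HSP90β, was the most abundant member and was at 1495, 1559 and 1531 CPM in Cre– controls and at 1210, 1189 and 1131 CPM in PTEC DN RAR mice. The coefficient of variation was 2.11% in Cre– controls and 3.49% in PTEC DN RAR mice, and all PTEC DN RAR libraries were below all controls. The mean went from 1528 ± 32.28 to 1176 ± 41.06 CPM, a log2 fold change of -0.38 (SE 0.09, 0.77 of the control level, edgeR adjusted p = 0.0124), and it remained called whichever mouse was left out. With the pan-leukocyte scaling, whose genes include 9 that were themselves called lower under TMM, it was -0.18 and was not called (adjusted p = 0.161).

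Hsp90aa1, the stress-inducible HSP90α, was at 41.17, 59.88 and 53.16 CPM in Cre– controls and at 35.84, 48.03 and 46.56 CPM in PTEC DN RAR mice. Replicate 1 was the lowest of its genotype in both, and the genotypes overlapped. The log2 fold change was -0.24 with a 95% interval of -0.60 to 0.12 (edgeR adjusted p = 0.251), which leaves room for a fall as large as that of Hsp90ab1. With the replicate number in the model, Hsp90aa1 was called lower (edgeR adjusted p = 0.0486). The ratio of Hsp90aa1 to Hsp90ab1 differed by 0.14 on the log2 scale (exact permutation p = 0.5, 0.6 adjusted). The inducible HSP90 gene thus did not rise with the inducible HSP70 genes in these data. Of its 75-base windows 42.8% occur in other genes, all 3 of them pseudogenes, against 0.537% for Hsp90ab1.

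Hspb1, the small heat shock protein HSP25 of the mouse, had the largest fold change of the 10 members at the lowest level. It was at 2.383, 1.879 and 2.059 CPM in Cre– controls, from 93, 56 and 65 counts, and at 2.485, 4.289 and 3.687 CPM in PTEC DN RAR mice, from 104, 182 and 174 counts. The genotypes did not overlap, but PTEC DN RAR replicate 1 was just above control replicate 1. The log2 fold change was 0.72 (SE 0.25, 1.65-fold, edgeR adjusted p = 0.0444), with a 95% interval of 0.16 to 1.28. Hspb1 was not called with limma-voom (0.0654), with DESeq2 size factors (0.0554), with the replicate number in the model (0.0863), or without any 1 of 5 mice. The adjusted p was 0.0526, 0.14 and 0.141 without control replicates 1, 2 and 3, and 0.143 and 0.121 without PTEC DN RAR replicates 2 and 3. Of its 75-base windows 46.4% occur in other genes, a pseudogene (Hsp25-ps1) and Gm9817.

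Neither gene of the mitochondrial chaperonin was called, though Hspe1 lay near the threshold. Hspd1 (HSP60) was at 43.96, 61.59 and 58.07 CPM in Cre– controls and at 44.99, 55.47 and 51.47 CPM in PTEC DN RAR mice, with replicate 1 the lowest in both genotypes. Its log2 fold change was -0.11 with a 95% interval of -0.42 to 0.21 (edgeR adjusted p = 0.565). Its partner Hspe1 (HSP10) was at 25.9, 24.29 and 28.13 CPM against 23.44, 21.42 and 21.45 CPM. All 3 PTEC DN RAR values were below the lowest control, but the log2 fold change of -0.24 (95% interval -0.47 to -0.01) had an edgeR adjusted p of 0.0861. Hspe1 was called lower with DESeq2 (0.0371) and with DESeq2 size factors in edgeR (0.0485). The ratio of Hspd1 to Hspe1 differed by 0.14 on the log2 scale (exact permutation p = 0.6). Their exons overlap on opposite strands over 112 bases, 4.24% of those of Hspd1 and 7.6% of those of Hspe1.

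Levels can be compared between genes only per length. As CPM divided by the exon length in kilobases (RPKM, mean of all 6 libraries), Hsp90ab1 stood at 450.9, Hspa8 at 110.8, Hspa1b at 61 and Hspa1a at 54.35 RPKM. The other members followed at 20.02 RPKM for Dnajb1, 19.91 for Hspd1, 16.35 for Hspe1, 12.07 for Hsp90aa1, 8.73 for Hsph1 and 2.713 for Hspb1. The order of Dnajb1, Hspd1 and Hspe1 differed by genotype, with means of 17.66, 20.64 and 17.71 RPKM in Cre– controls against 22.37, 19.17 and 14.99 RPKM for PTEC DN RAR. Hsp90ab1 and Hspa8 stood apart from each other and from all other members in every library, whereas the ranges over the 6 libraries overlapped between Hspa1b and Hspa1a, Dnajb1 and Hspd1, Hspd1 and Hspe1, Hspe1 and Hsp90aa1, and Hsp90aa1 and Hsph1, and Dnajb1 also overlapped Hspe1 and Hsp90aa1. The levels of genes with near-identical copies, above all Hspa1a, Hspa1b, Hspb1, Hsp90aa1, Hspa8 and Hspd1, are lowered by any reads left out.
Summed over the 10 members, chaperone transcripts took 0.25%, 0.251% and 0.267% of counts in the control libraries, against 0.227%, 0.227% and 0.226% for PTEC DN RAR, a lower share without overlap in which the fall of Hsp90ab1, the largest term, outweighed the rise of the HSP70 pair.

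The other genes of the chaperone network were described through 8 lists with 94 genes, of which 91 were tested. Of these, 15 were called higher (16.5%) and 27 lower (29.7%), beside 23.6% higher and 17.1% lower of all genes, and the median log2 fold change was -0.03, beside 0.04 in all genes. This balance depended on the scaling, as did that of all genes. With the pan-leukocyte scaling, 26 of the list genes were called higher and 1 lower by edgeR (34 and 6 at an unadjusted p under 0.05). Of all 15440 genes, 4847 were called higher and 777 lower with that scaling, and all counts with it below stand beside these. The median of the list genes, 0.17, stood beside 0.23 in all genes. Leaving out 1 mouse at a time gave 6 to 14 higher and 20 to 26 lower, with 7, 6, 9 and 7 higher without control replicate 2, control replicate 3, PTEC DN RAR replicate 1 and PTEC DN RAR replicate 3. Each gene given below as lower kept its sign with the pan-leukocyte scaling, but only Cct8, Ier3 and Dusp1 were still called. Among the others, Hsp90b1 was at -0.36 (edgeR adjusted p = 0.0579), Dnajc13 at -0.33 (0.0771), Hspa14 at -0.29 (0.104) and Hspa4 at -0.25 (0.186). Among other HSP70 and HSP110 genes, 2 of 11 were higher and 4 lower (3 and 0 with the pan-leukocyte scaling). Hspa14, an HSP70 bound to ribosomes, went from 51.56 to 36.9 CPM (log2 fold change -0.48, edgeR adjusted p = 0.0062), and Hspa4, an HSP110-type exchange factor, from 209.3 to 152.5 CPM (-0.46, 0.012). Among HSP90 genes and cochaperones, 2 of 15 were higher and 5 lower (5 and 0 with the pan-leukocyte scaling). Without control replicate 2 or 3 these counts were 0 and 3, and none was called higher without PTEC DN RAR replicate 1 or 2, with DESeq2, with DESeq2 size factors or with no filter. Hsp90b1, the HSP90 of the endoplasmic reticulum, fell from 911.8 to 620.1 CPM (-0.56, 0.00784), and the cochaperone Ptges3 (p23) from 28.15 to 20.34 CPM (-0.47, 0.0225), a call that was lost without control replicate 2 (0.055), control replicate 3 (0.0642) or PTEC DN RAR replicate 1 (0.0727).

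Of 21 J-domain proteins, 3 were called higher and 6 lower, a share of 42.9% near the 40.6% of all genes called. The counts were 4 and 0 with the pan-leukocyte scaling, 3 were lower without PTEC DN RAR replicate 1, and 2 were higher without control replicate 3 or PTEC DN RAR replicate 3. Dnajb2 rose from 8.016 to 15 CPM (log2 fold change 0.90, edgeR adjusted p = 0.00224), and Dnajc13, which acts on endosomes, fell from 207.4 to 144 CPM (-0.53, 0.00489). Among BAG domain and other nucleotide exchange factors, 3 of 10 were higher and the other 7 did not pass. That share, 30%, was below the 40.6% of all genes called, of which 23.6% were higher. None of the 10 was called without control replicate 2, PTEC DN RAR replicate 1 or PTEC DN RAR replicate 3, and 1 was without control replicate 3. Bag4 was also not called without control replicate 1 (adjusted p = 0.0669). With all mice, Bag4 rose from 24.46 to 33.14 CPM (0.44, 0.0255) and Sil1, which acts on the HSP70 of the endoplasmic reticulum, from 26.05 to 32.01 CPM (0.30, 0.043), but Sil1 was not called with DESeq2 (0.063) or without any 1 of 5 mice (0.0701 to 0.245). Small heat shock proteins other than Hspb1 had 3 of 6 tested genes higher, beside 23.6% of all genes, and the other 3 did not pass. The count was 2 without control replicate 2 or PTEC DN RAR replicate 3 and 1 without control replicate 3. Cryab, the αB-crystallin made in muscle, lens and kidney tubules, rose from 19.97 to 44.46 CPM (1.15, 0.00707), with libraries at 26.9, 17.11 and 15.9 against 42.67, 32.71 and 58 CPM and no overlap.

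Of 14 genes of the TRiC chaperonin and of prefoldin, which fold and deliver actin and tubulin in the cytosol, 9 were called lower and 5 did not pass, beside 17.1% of all genes called lower. Their median log2 fold change was -0.34. With the pan-leukocyte scaling, 1 of the 14 was called lower, beside 777 of all 15440 genes. Cct8 was at 166, 196.6 and 189.8 CPM in Cre– controls and at 122.6, 122.4 and 131.7 CPM in PTEC DN RAR mice (log2 fold change -0.55, edgeR adjusted p = 0.00237). Pfdn4 fell from 12.11 to 8.598 CPM (-0.49, 0.0144). Of 8 mitochondrial quality control proteases, 1 was higher, Clpp (14.53 to 20.4 CPM, 0.49, 0.0145), and 1 lower, Yme1l1 (91.59 to 71.35 CPM, -0.36, 0.0268). That share, 25%, was below the 40.6% of all genes called. The counts were 5 and 0 with the pan-leukocyte scaling. With scaling by library size alone, with 10 counts required in every library or without control replicate 1, 2 were higher. Clpp was not called without control replicate 2 (0.0614), control replicate 3 (0.0723) or PTEC DN RAR replicate 3 (0.0563), nor Yme1l1 without control replicate 2 (0.0507), control replicate 3 (0.0777), PTEC DN RAR replicate 1 (0.0901) or PTEC DN RAR replicate 2 (0.0538).

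In the list of 6 heat shock factors and regulators, 1 was higher and 2 lower, a share of 50% beside 40.6% of all genes called. The counts were 2 and 0 with the pan-leukocyte scaling. Hsf2 fell from 13.94 to 9.584 CPM (log2 fold change -0.54, edgeR adjusted p = 0.0126), and l7Rn6, the older name of Hikeshi, which carries HSP70 into the nucleus, from 20.14 to 16.14 CPM (-0.32, 0.0286). With the pan-leukocyte scaling they were at -0.33 (0.148) and -0.12 (0.495), and l7Rn6 was also not called without control replicate 3 (0.0629), PTEC DN RAR replicate 1 (0.0688) or PTEC DN RAR replicate 2 (0.0725). The 1 call higher was lost without any of the control mice and without PTEC DN RAR replicate 1 or 3. Hsf1, named here after its values were seen because it encodes heat shock factor 1, was at 27.72, 25.7 and 26.42 CPM against 27.76, 28.99 and 25.87 CPM (0.05, adjusted p = 0.697).

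Genes known to be induced during dissociation were set beside the chaperones, because the cells had been freed with warm enzymes. Of 24 immediate early genes, 15 were called lower in PTEC DN RAR mice and 1 higher, beside 17.1% lower and 23.6% higher of all genes. Their median log2 fold change was -0.46, and their summed level was 10400 to 12780 CPM in Cre– controls and 6298 to 8126 CPM in PTEC DN RAR mice. Ier3 fell from 149.2 to 41.4 CPM (-1.85, edgeR adjusted p = 0.000795), and Dusp1, a MAP kinase phosphatase, from 1195 to 624.7 CPM (-0.94, 0.001). Between the genotypes, Hspa1a and Hspa1b were thus higher where most of these immediate early genes were lower. Within a genotype this order did not hold for the genes named. PTEC DN RAR replicate 3, the highest in Hspa1a and Hspa1b, was also the highest of its genotype in Ier3 (50.82 CPM) and Dusp1 (707.3 CPM). Control replicate 2, the lowest in Hspa1a and Hspa1b, was the lowest control in Ier3 (100.3 CPM) but not in Dusp1. The relation within a genotype was not tested. The count of 15 was 9 without control replicate 1 or without PTEC DN RAR replicate 1, 10 without PTEC DN RAR replicate 2, and 8 with the pan-leukocyte scaling, under which 777 of all 15440 genes were called lower, against 2636 with TMM. The count of 1 called higher was 3 without control replicate 1. The time that each kidney spent in digestion was not given in the sources used here, and its part in these differences was not tested. Infiltrating monocyte and neutrophil markers were also lower in PTEC DN RAR mice, with median log2 fold changes of -0.99 and -1.02. The part of cell composition in the fall of the immediate early genes was not tested either.

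**Figure D4:**
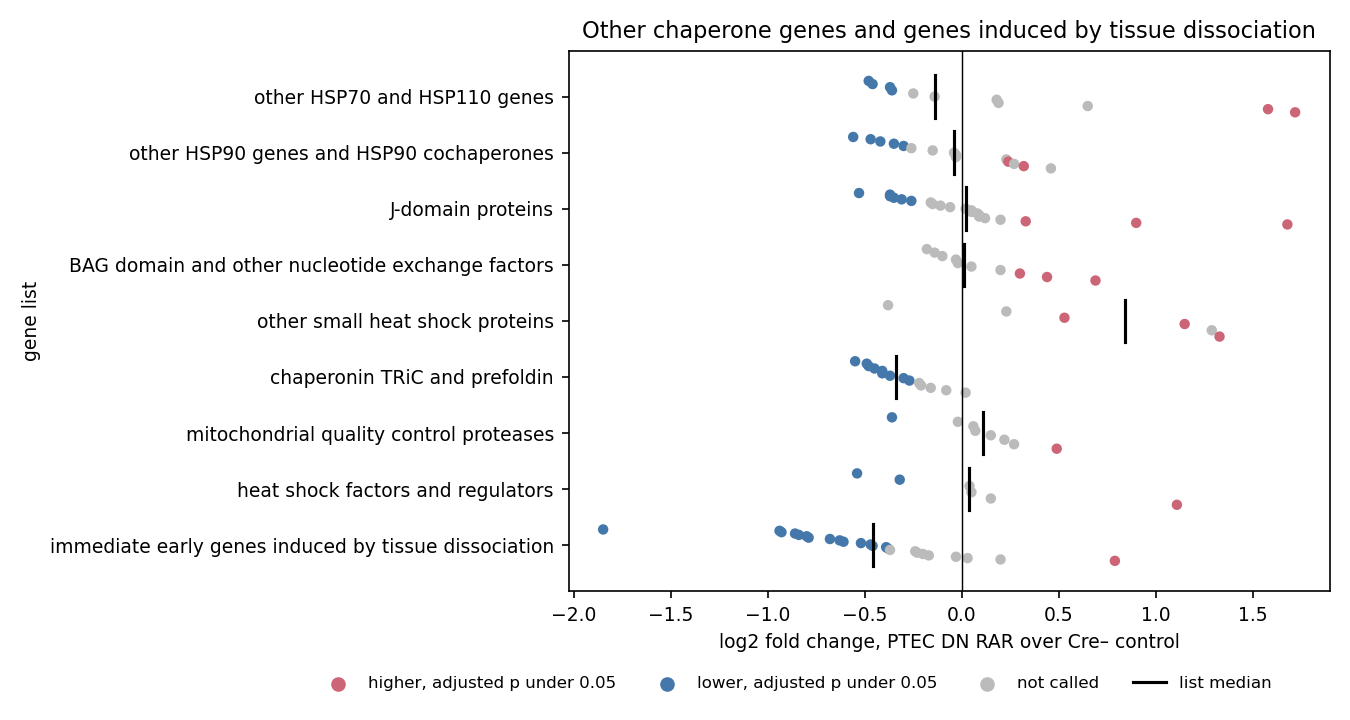
Log2 fold change, PTEC DN RAR over Cre– control, of each tested gene in the 8 chaperone lists and in the list of immediate early genes; red and blue mark genes called higher and lower, grey those not called, and black bars the list medians. The medians of the TRiC and prefoldin list and of the immediate early genes, -0.34 and -0.46, lie below 0, and that of the other small heat shock proteins lies above it.

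The calls of the 10 members depended on processing to different degrees. Hspa1b was called higher in 14 of 15 alternatives and Hsp90ab1 lower in 13 of 15. The remaining alternative for Hspa1b entered the mean level of the proximal tubule markers in each library as a covariate. With it, the log2 fold changes of Hspa1a, Hspa1b, Hspb1, Dnajb1 and Hsph1 turned to -0.48, -0.10, -0.91, -0.36 and -0.51, each with an edgeR adjusted p of 1. In that fit 0 of the 10 members and 1 gene of all 15440 were called, and 0 members and 652 genes had an unadjusted p under 0.05. The tubule marker levels separate the genotypes without overlap, so genotype and tubule RNA cannot be told apart in this fit.

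**Figure D5:**
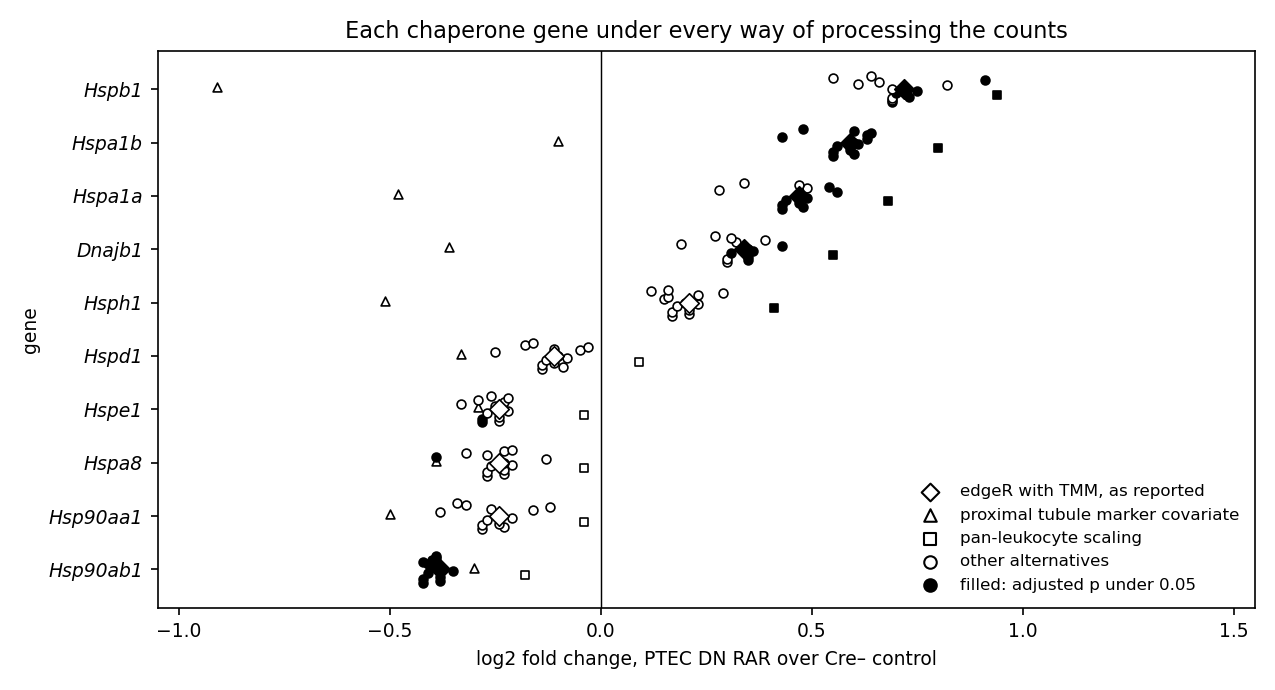
Log2 fold change of each chaperone gene under each way of processing the counts. Diamonds are the values as reported, triangles the fit with the proximal tubule marker covariate, squares the pan-leukocyte scaling and circles the other alternatives, and filled symbols have an adjusted p under 0.05; triangles for Hspa1a, Hspa1b, Hspb1, Dnajb1 and Hsph1 lie below 0.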

How the data were processed

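PolyA libraries of CD11B+ kidney cells were sequenced, 1 per mouse, for 3 mice of each genotype. The authors deposited raw counts of reads per Ensembl gene, without normalization. The submitters' processing notes name STAR 2.5.0a, HTSeq 0.6.1, edgeR, limma and GRCm38, with no role or order. Read length and the strand setting of the counting are not given in the sources used here, so reads of overlapping genes on opposite strands cannot be told apart. Between 42.93% and 47.75% of alignments per library were not unique and are left out of the counts, which lowers genes with near-identical copies. Of 46612 lines, 9 repeated an identifier and were collapsed, and 27 symbols turned into dates were restored.

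Low genes were removed by filterByExpr, and TMM factors were used for scaling. The genotypes were then compared by quasi-likelihood fits (glmQLFit, glmQLFTest; edgeR 4.0.16 under R 4.3.3), and p values of the 15440 genes were adjusted by Benjamini-Hochberg. The SE is the log2 fold change divided by the square root of F, and 95% intervals use the t distribution on the degrees of freedom of the fit. Ratios used counts plus 0.5 and two-sided exact permutation tests. DESeq2 1.42.0 and limma 3.58.1 (voom) served as alternatives, with other scalings and filters, the replicate number or tubule markers in the model, and each mouse left out. The test was checked on simulated data with known changes. Tables were handled in pandas 2.3.3 under Python 3.11, with scipy 1.17.1 for tests and matplotlib 3.10.9 for figures.

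Coordinates and exon lengths are from GENCODE M21 on GRCm38. Sequence shared between genes was counted as windows of 75 bases found in transcripts of another gene. The search for 2 inverted units was added after the search for 3. The members and gene lists were chosen with earlier results of these data known. Besides the members, up to 2 genes per list were named, those with the largest absolute log2 fold change among called genes whose mean reached 10 CPM and whose genotypes did not overlap. Within each genotype, libraries differed by more than sampling noise, with a chi-square of at least 29.6 per degree of freedom. P values measure the spread between mice, and count limits cover counting error only.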

Additional observations from a re-analysis of the deposited data

How the results depend on the processing

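Members called higher numbered 4 and lower 1. With DESeq2 size factors they were 2 and 2, with the replicate block 2 and 2, and with DESeq2 2 were lower. With pan-leukocyte scaling, which moved the median of all genes to 0.23, 5 members were called higher (Hsph1 in addition), 0 members and 777 genes were called lower and the members' median was 0.25. With the tubule marker covariate, 0 members were called higher and 0 lower, 0 and 1 of all genes were, and the members' median was -0.37. Leaving out each mouse in turn gave 1 to 3 members higher and 1 to 2 lower. Signs turned with the covariate for Hspa1a (-0.48), Hspa1b (-0.10), Hspb1 (-0.91), Dnajb1 (-0.36), Hsph1 (-0.51) and Pfdn4 (0.08), and with pan-leukocyte scaling for Hspd1 (0.09). The split of all genes into higher and lower calls was 3640 and 2636 with TMM, 3405 and 3082 with DESeq2 size factors, and 4847 and 777 with pan-leukocyte scaling. The cause was not tested. The replicate numbers are shared across genotypes, but deviations of same-numbered mice correlated at -0.015, 0.211 and 0.029 over 15440 genes, so they were not taken as pairs; with the block, Hspb1 (adjusted p = 0.0863) and Dnajb1 (0.0552) were not called by edgeR and Hsp90aa1 was (0.0486). Of 711 other values under alternatives, 560 stayed called or stayed not called with the same sign (log2 fold changes), stayed within 1.5 times (counts of list genes) or moved by less than the spread between mice (ratios), 131 lost the call or were counts that fell by over 1.5 times, 13 gained the call or were counts that grew by as much, and 7 log2 fold changes turned sign. Depth limits Hspb1 most, with 56 to 182 counts per library.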
